A study of Mus musculus with 62 samples.

Results

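Lungs of sensitised C57BL/6J mice challenged with Der p 1 were compared, across all genes, with lungs of sensitised C57BL/6J mice challenged with PBS. The arrays were those titled C57BL/6J Treated and C57BL/6J Control, and repeat arrays of a mouse were averaged first. This left 27 of the 62 arrays of the series and 23 of its 48 mice, 12 challenged and 11 control. All were male, and no age is given in the sources used here. Every mouse, controls included, was sensitised by intraperitoneal injections of 10 µg of Der p 1, on day 1 and again on day 8. On day 15 the challenged mice received 50 µg of Der p 1 and the control mice PBS, by a route the sources used here do not give, and the right lower lobe was frozen on day 18, 72 h later. The controls are therefore sensitised animals, and no unsensitised mouse entered the comparison.

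Der p 1 is a cysteine protease of house dust mites and one of their major allergens. In a sensitised lung, an allergen recalls T helper cells of the type 2 kind, whose cytokines interleukin 4 and interleukin 13 act on epithelium and macrophages through the factor STAT6. The textbook features of such a response are mucus-producing goblet cells, alternatively activated macrophages, eosinophils drawn in by chemokines such as the eotaxins, and smooth muscle that contracts too readily.

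Values are the deposited RMA log2 levels of 16715 transcript clusters, a cluster being the probes assigned to the exons of 1 transcript locus. Differences are challenged minus control on the log2 scale ± standard error, from a limma model with 1 mean for each strain and challenge over the 48 mice, so that a difference of 1 is a doubling. P-values were adjusted by Benjamini and Hochberg over all clusters, and a gene is said to have risen or fallen where the adjusted p was under 0.05. Mouse numbers begin with 5 (5 control and 4 challenged mice) or with 6 (6 and 8 mice). The sources used here do not say what these number series stand for. The main fit held no covariate, and the number series and the spread of each array were entered as covariates in alternative fits. Nothing in the labels ties mice to cages or days, so the p-values measure the spread between these mice.

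The lobes read as lung. In each of the 23 mice, with repeat arrays averaged, the surfactant gene Sftpc (12.81 to 13.75), the club cell gene Scgb1a1 (12.60 to 13.47), the alveolar type I gene Ager (11.52 to 12.29), the endothelial gene Cdh5 and the smooth muscle gene Acta2 lay above the array median. Marco, a receptor of alveolar macrophages, lay below it in all 23 (5.12 to 6.40). The SD of the values on an array averaged 1.86 ± 0.152 (SD) in challenged and 1.96 ± 0.113 in control mice (two-sided permutation p = 0.0695). The difference was −0.11 within number series 6 (two-sided exact permutation p = 0.012) and −0.134 within series 5 (exact permutation p = 0.349). Challenged mouse532 had the lowest SD of all, 1.44, against 1.70 to 2.08 in the other C57BL/6J mice. Control mouse644 stood apart in another way. Its Chil4 level of 10.41 and Rnase2a level of 7.31, both products of the type 2 response, were the highest of the 11 controls and lay within the range of the challenged mice. Without mouse532 the difference in array SD was −0.064 (permutation p = 0.136).

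Of the 16715 clusters, 3146 passed (18.8%), 1646 of them higher (9.85%) and 1500 lower (8.97%) after Der p 1. The median difference over all clusters was 0.07. At least 2-fold changes were 100 rises and 45 falls, and at least 4-fold changes 15 rises and 1 fall. With the number series as a covariate 5480 clusters passed (32.8%), among them all 3146. With array SD as a covariate 2250 passed (13.5%), 1677 of them (10% of all clusters) shared with the 3146, and with both covariates 1423 (8.51%). Within number series 5 alone 305 passed (1.82%) and within number series 6 alone 4069 (24.3%), 220 of them in both. Without mouse531, a control, 4969 passed, and without any other single mouse between 2224 (mouse659) and 3941 (mouse660). Centring each array on its median gave 1068 rises and 2148 falls, so that 66.8% of the calls were falls in place of 47.7%. The array median itself averaged 6.53 in challenged and 6.47 in control mice (difference 0.0563, two-sided permutation p = 0.0189). Within number series 5 this difference was 0.0802 (exact permutation p = 0.0317), and within series 6 it was 0.0291 (exact permutation p = 0.159). A call is termed firm below where it held with either covariate and without any single C57BL/6J mouse, as 783 rises (4.68%) and 700 falls (4.19%) did. Of these 1483 clusters (8.87%), 1007 also passed with both covariates together. The sign was the same within number series 5 and within number series 6 in 1477 of them and in 3121 of all 3146. The same mice had selected these clusters, so this agreement is no independent test.

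The largest rises were led by Rnase2a, an eosinophil-associated ribonuclease, and Chil4, a chitinase-like protein. The lowest, median and highest Rnase2a levels were 3.18, 4.0 and 7.31 in the 11 controls and 6.14, 8.25 and 9.97 in the 12 challenged mice. All but mouse644 among the controls lay below all challenged mice. The difference was 3.81 ± 0.68 (adjusted p = 0.000228) and without mouse644 4.10. For Chil4 the levels were 2.55, 4.83 and 10.41 in controls and 5.94, 9.37 and 11.05 after Der p 1, a difference of 3.80 ± 0.79 (adjusted p = 0.000799). Here mouse644 was the control that reached far into the challenged range, and without it the difference was 4.33.

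Saa3, an acute-phase apolipoprotein made in inflamed tissue, had levels of 5.08, 6.33 and 6.93 in controls and 6.27, 9.81 and 11.37 in challenged mice. The groups overlapped through 1 challenged animal, mouse660, and the difference was 3.26 ± 0.50 (adjusted p = 4.32e-05). Slc26a4, the chloride and bicarbonate exchanger pendrin, had levels of 4.90, 5.36 and 7.51 and 7.17, 8.97 and 10.00, with mouse644 again the highest control. It rose by 3.26 ± 0.50 (adjusted p = 4.32e-05). Ccl24, an eotaxin that attracts eosinophils through the receptor Ccr3, had levels of 4.78, 5.04 and 5.93 and 5.98, 7.83 and 10.96. The groups did not overlap, the challenged mice were spread over a wide range, and the difference was 2.83 ± 0.47 (adjusted p = 0.000104). Clca1, a secreted goblet cell protein, ran from 5.96 to 12.67 in controls and from 10.08 to 12.75 in challenged mice. Its control levels were the more scattered, and it rose by 2.74 ± 0.69 (adjusted p = 0.00461). All 6 of these rises were firm. Rnase2a and Chil4, like Chil3, Ly6i and the H2 genes below, belong to families of near-identical genes, so their probes may read relatives as well.

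Among the falls the enzymes Sult1d1, a sulfotransferase of catecholamines and small phenols, and Pon1, a paraoxonase that hydrolyses lipid peroxides and organophosphates, changed most. Sult1d1 levels were 5.09, 7.88 and 8.66 in controls and 3.39, 5.28 and 6.84 after challenge. Controls mouse530, mouse531 and mouse657 lay inside the challenged range, and the difference was −2.27 ± 0.39 (adjusted p = 0.000151). Pon1 levels were 8.36, 9.47 and 9.92 and 5.75, 7.39 and 9.56, so that the challenged mice spread widely downwards, and the difference was −1.77 ± 0.36 (adjusted p = 0.000588). Chrm2, a muscarinic acetylcholine receptor that on airway nerve endings limits acetylcholine release, had levels of 8.49, 9.18 and 9.90 and 6.21, 7.80 and 9.01. It fell by 1.46 ± 0.27 (adjusted p = 0.000304). Galnt15, of the enzyme family that starts mucin-type glycosylation, fell by 1.35 ± 0.23 (adjusted p = 0.000107). The matrix proteoglycan decorin, Dcn, fell by 1.31 ± 0.30 (adjusted p = 0.00215), and by 0.83 with array SD as a covariate. Pln, phospholamban, the brake of the calcium pump of heart muscle, fell by 1.36 ± 0.41 (adjusted p = 0.0169). Control mouse531 was the lowest control in all of these but Pln. All 6 falls were firm, and Pln alone of them lost its call with both covariates together (adjusted p = 0.0982).

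**Figure D1:**
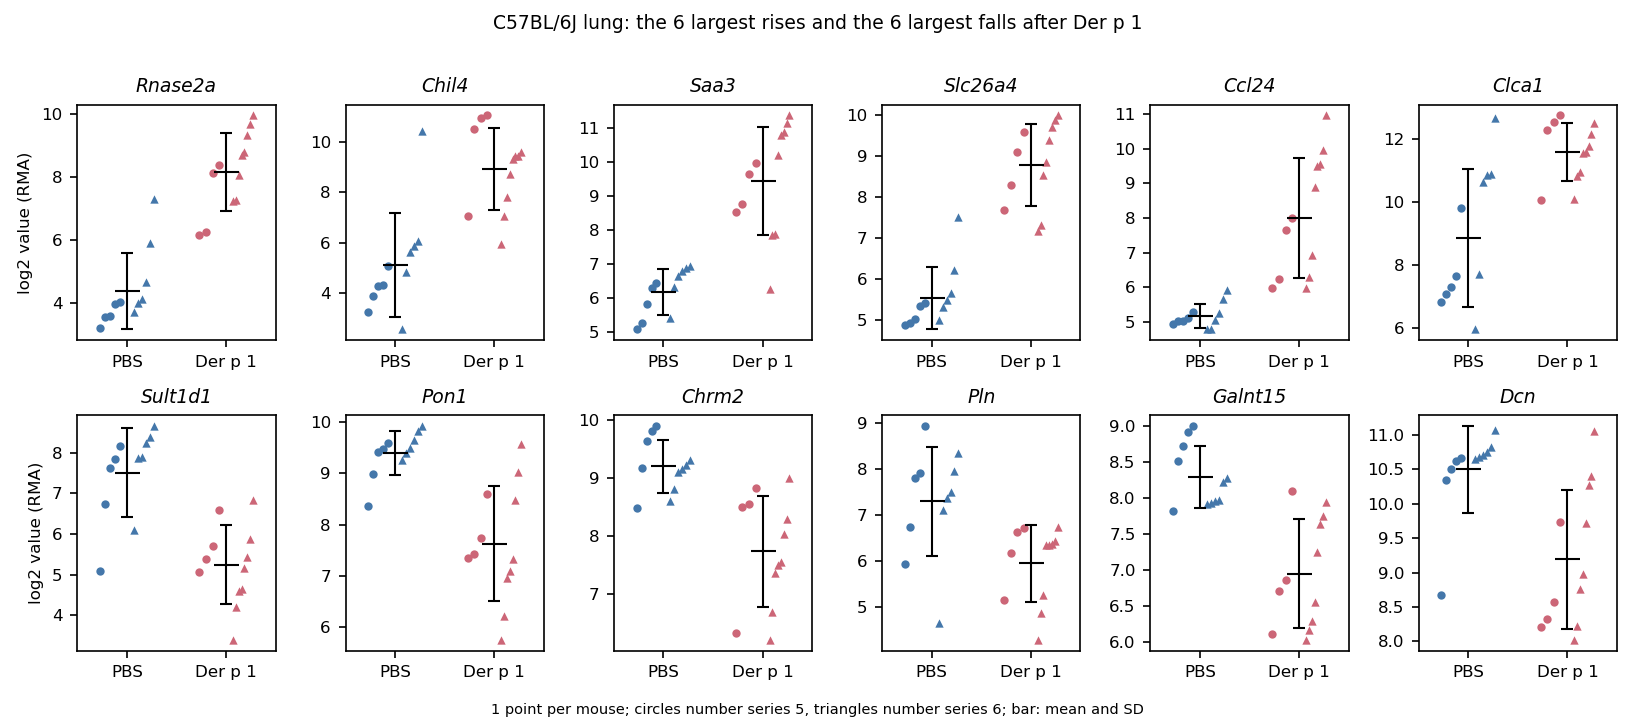
Log2 level in each C57BL/6J mouse for the 6 genes with the largest rises (top) and the 6 with the largest falls (bottom). Blue points are the 11 PBS mice and red points the 12 Der p 1 mice, circles number series 5 and triangles number series 6, and bars the mean ± SD. The PBS mouse at 10.41 for Chil4 and at 7.31 for Rnase2a is mouse644.

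Heart muscle of the pulmonary veins or of adjoining tissue can be sampled with a mouse lung lobe, so the other heart genes are given beside Pln. Of 11 measured heart muscle genes Pln was the 1 that fell and none rose, with a median of −0.37. The mean of the 11 ran from 4.82 to 7.54 in controls and from 4.83 to 6.96 in challenged mice. The atrial light chain Myl7 (−0.89 ± 0.51, adjusted p = 0.204) and the troponins Tnnt2 (−0.36 ± 0.33) and Tnnc1 (−0.72 ± 0.40) did not pass. The part of heart tissue in the fall of Pln was not tested.

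The 15 firm rises with the smallest p-values held macrophage and leukocyte genes, cell division genes, and the epithelial and acute-phase genes Slc26a4 and Saa3. Fbp1, fructose-1,6-bisphosphatase, an enzyme of gluconeogenesis that macrophages also express, had levels of 4.48, 4.64 and 5.49 in controls and 4.95, 5.94 and 6.73 in challenged mice. All challenged mice but mouse538 and mouse647 lay above all controls, and it rose by 1.23 ± 0.14 (adjusted p = 2.88e-07). Ly6i, a small lipid-anchored surface protein of the Ly6 family, had levels of 5.44, 6.34 and 7.36 and 6.94, 8.28 and 10.53 and rose by 2.13 ± 0.27 (adjusted p = 1.34e-06). Fcrl5, an Fc receptor-like protein of B cells, rose by 0.69 ± 0.10 from a low level (median 4.20 in controls). The nuclear envelope gene Nrm rose by 0.69 ± 0.09, and AA467197 by 2.19 ± 0.35. The others were the cell cycle genes Ckap2l, Aurkb, Cdca3, Kif23, Iqgap3, Cdt1, Fignl1 and Ccna2.

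For 2 clusters of the 16715 (0.012%) the change in C57BL/6J differed from that in BALB/cJ in the same model, and both were among these rises. Fbp1 rose by 1.23 in C57BL/6J against 0.04 in BALB/cJ mice, a difference of 1.19 ± 0.20 by log2 (limma, adjusted p = 0.00351). Fcrl5 differed by 0.73 ± 0.14 (limma, adjusted p = 0.0177), being −0.05 in BALB/cJ. Fbp1 passed in 48 of 48 fits that each left out 1 mouse of either strain, at an adjusted p of at most 0.009, and Fcrl5 in 48 of 48 at up to 0.0439. The difference in Fcrl5 did not pass after a second quantile normalization (0.52, adjusted p = 0.155), with both covariates (adjusted p = 0.152) or with the first array of each mouse (adjusted p = 0.0506). Fbp1 differed by 1.14 within number series 5 (adjusted p = 0.872) and by 1.18 within number series 6 (adjusted p = 0.278). Fcrl5 was among the dimmest 25% of clusters and Fbp1 among the dimmest 50%. Unadjusted, 1810 clusters had p under 0.05 for the difference between strains, and Azgp1 (adjusted p = 0.0537) and Ly6i (adjusted p = 0.0656) came next among the named genes.

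In 7 clusters every challenged mouse lay above every control (0.0419%) and in 1 every challenged mouse lay below (0.00598%). The widest gap was that of Pdcd1lg2, the PD-1 ligand of dendritic cells and alternatively activated macrophages, with levels of 4.53, 4.77 and 5.17 in controls and 5.52, 7.07 and 9.37 after Der p 1 (2.27 ± 0.46, adjusted p = 0.000588). Arg1, arginase, had levels of 4.83, 5.29 and 5.75 and 5.95, 7.47 and 9.75 (2.14 ± 0.52, adjusted p = 0.00311). Il2ra, the interleukin 2 receptor chain of activated and regulatory T cells, rose by 0.82 ± 0.23 (adjusted p = 0.0092). The mitotic genes Aurkb, Bub1b and Cdca3 and the eotaxin Ccl24 made up the 7. The 1 gene entirely below was Ppp2r5b, a regulatory subunit of protein phosphatase 2A, with levels of 8.21, 8.29 and 8.62 and 7.54, 7.99 and 8.21, and it fell by 0.38 ± 0.09 (adjusted p = 0.00394).

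Over all 14824 named genes, taking the brightest cluster of each, 9.82% rose and 9.34% fell, with a median difference of 0.06. Firm rises were 4.65% and firm falls 4.39%, and with array SD as a covariate 7.54% rose and 6.17% fell. Of 21 measured mitosis genes 20 rose and none fell, 19 of them firmly, with a median of 1.11 (1.08 in number series 5 and 0.99 in series 6). The mean of the 21 ran from 4.91 to 5.67 in controls and from 5.47 to 7.09 in challenged mice, so the groups overlapped at their edges. Top2a, the topoisomerase that untangles chromosomes, had levels of 4.86, 5.29 and 6.62 and 5.92, 7.39 and 8.38 and rose by 1.84 ± 0.32 (adjusted p = 0.000151). Ccna2, cyclin A2, had levels of 5.88, 6.41 and 7.51 and 7.43, 8.26 and 9.19 and rose by 1.65 ± 0.26. Cyclin B2 (Ccnb2, 0.92 ± 0.19), the mitotic kinases Aurkb (1.16 ± 0.17) and Plk1 (1.19 ± 0.20), the spindle midzone protein Prc1 (1.60 ± 0.27) and the kinesin of cytokinesis Kif23 (1.12 ± 0.17) rose with them.

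Of 20 genes of DNA replication and nucleotide synthesis 13 rose, 9 firmly, and none fell, with a smaller median of 0.52. Cdt1, which licenses origins, had levels of 5.92, 6.15 and 6.34 in controls and 6.28, 6.76 and 7.05 in challenged mice and rose by 0.52 ± 0.08 (adjusted p = 4.37e-05). The polymerase subunits Pole (0.80 ± 0.15) and Pola1 (0.57 ± 0.12) rose. So did the helicase component Mcm3 (0.66 ± 0.14) and the replication gene Mcm10 (0.53 ± 0.11). The helicase components Mcm2 (0.28 ± 0.11, adjusted p = 0.0666) and Mcm4 (0.17 ± 0.11, adjusted p = 0.283) did not pass. Mcm2 passed without mouse532 (0.33, adjusted p = 0.0285). Of 16 ribosome biogenesis genes 5 rose and none fell. The nucleolar genes Ncl (0.59 ± 0.18), Nop56 (0.30 ± 0.09) and Nop58 (0.57 ± 0.15) were firm and Rrs1 (0.58 ± 0.20) and Myc (0.36 ± 0.11) were not. Ncl (adjusted p = 0.0708) and Nop56 (adjusted p = 0.0972) lost the call with both covariates.

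Promoters of cell cycle genes are known to carry CCAAT boxes and, near the start site, the cell cycle homology region, whose letters TTTGAA were searched on both strands of RefSeq promoters (GRCm38.p6, 250 bases before to 50 after the start). Of the 18 promoters found for 17 of the mitosis genes, 14 held TTTGAA (77.8%), against 14.3% of 14894 promoters of all measured genes and 16.6% of those of the genes that rose. In the 250 bases before the start alone the share was 44.4%. CCAAT was found in 14 of the 18 (77.8%) against 37.5% of all. For DNA replication genes the shares were 16.7% for TTTGAA and 61.1% for CCAAT. The promoters of Cdca3, whose groups did not overlap, and of Ccnb2 and Plk1 are shown 5′ to 3′ with TTTGAA in capitals, which starts 30 bases after the start site in Cdca3 and Plk1.
Cdca3 (chr6:124829926-124830225, + strand): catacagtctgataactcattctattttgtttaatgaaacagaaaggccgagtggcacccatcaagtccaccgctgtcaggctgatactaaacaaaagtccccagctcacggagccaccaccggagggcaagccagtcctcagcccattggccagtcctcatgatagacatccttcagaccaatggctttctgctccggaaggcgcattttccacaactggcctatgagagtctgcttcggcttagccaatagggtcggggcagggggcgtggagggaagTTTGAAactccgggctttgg
Ccnb2 (chr9:70421505-70421804, - strand): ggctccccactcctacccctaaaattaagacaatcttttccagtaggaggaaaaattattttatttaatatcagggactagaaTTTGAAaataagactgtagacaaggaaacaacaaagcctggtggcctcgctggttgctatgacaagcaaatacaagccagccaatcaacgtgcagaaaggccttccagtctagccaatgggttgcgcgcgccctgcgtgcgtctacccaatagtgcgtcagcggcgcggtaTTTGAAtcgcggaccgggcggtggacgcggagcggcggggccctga
Plk1 (chr7:122159185-122159484, + strand): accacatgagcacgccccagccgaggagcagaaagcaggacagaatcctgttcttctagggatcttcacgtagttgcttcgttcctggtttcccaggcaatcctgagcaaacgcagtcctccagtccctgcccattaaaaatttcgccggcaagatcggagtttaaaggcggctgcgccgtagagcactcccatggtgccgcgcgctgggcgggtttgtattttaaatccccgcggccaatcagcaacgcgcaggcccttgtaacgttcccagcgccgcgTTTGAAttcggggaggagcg
A match describes letters and is no evidence that a factor binds there.

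Genes of alternatively activated macrophages rose with few exceptions. Of 15 measured, 13 rose, 8 of them firmly, and 1 fell, with a median of 1.23 and 1.63 with array SD as a covariate. Retnla, a secreted product that interleukin 4 induces strongly in mouse macrophages, had levels of 9.57, 11.15 and 12.78 in controls and 12.50, 13.21 and 13.51 in challenged mice. Control mouse644 lay at the lower edge of the challenged range, and the difference was 2.06 ± 0.35 (adjusted p = 0.000143). Chil3 rose by 1.23 ± 0.42 (adjusted p = 0.0341), a call that ended without mouse529, mouse530, mouse536, mouse537 or mouse661 (adjusted p up to 0.0645). Pdcd1lg2, Arg1, Ccl24 and Chil4, described above, are members of this list, and so is Alox15, the lipoxygenase of eosinophils and such macrophages (2.22 ± 0.45, adjusted p = 0.000685). They did not all move alike. Arg1 (9.75), Pdcd1lg2 (9.37) and Ccl24 (10.96) were highest in mouse659, where Chil4 lay at 7.8, and Chil4 was highest in mouse540 (11.05). Which lung cells held the transcripts of this list was not tested. Tgm2, a transglutaminase, was the member that fell (−0.36 ± 0.11, adjusted p = 0.0673 with array SD as a covariate). Members outside the rule for named genes, such as this one, are named where a list had few calls, after their values were seen.

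Interleukin 4 acts through STAT6, whose preferred letters are TTC and GAA with 4 bases of any kind between them. On either strand, this motif was found in 5 of 15 promoters of 10 of these macrophage genes (33.3%), against 6.04% of all 14894 promoters and 6.04% of the promoters of all genes that rose. The same promoters also held the other motifs more often than all promoters did, TTTGAA in 5 of 15 (33.3%, against 14.3%) and CCAAT in 8 of 15 (53.3%, against 37.5%). The promoters of Retnla and Pdcd1lg2, where the motif starts at −145 and −82 from the start site, are shown with the match in capitals.
Retnla (chr16:48842359-48842658, + strand): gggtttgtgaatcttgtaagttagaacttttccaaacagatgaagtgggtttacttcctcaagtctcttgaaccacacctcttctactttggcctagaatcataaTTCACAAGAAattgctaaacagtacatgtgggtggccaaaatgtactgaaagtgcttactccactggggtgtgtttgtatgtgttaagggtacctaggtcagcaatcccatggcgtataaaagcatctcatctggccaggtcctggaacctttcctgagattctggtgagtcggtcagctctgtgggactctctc
Pdcd1lg2 (chr19:29410669-29410968, + strand): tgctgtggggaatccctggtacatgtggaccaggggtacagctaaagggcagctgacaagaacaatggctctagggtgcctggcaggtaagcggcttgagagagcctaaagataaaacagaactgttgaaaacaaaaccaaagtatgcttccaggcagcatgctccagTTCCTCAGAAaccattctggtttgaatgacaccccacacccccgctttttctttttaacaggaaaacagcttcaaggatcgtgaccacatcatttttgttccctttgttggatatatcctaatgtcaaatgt
Neither sequence tells whether STAT6 was bound in these lungs.

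Of 14 type 2 cytokines, alarmins and receptors 5 rose and none fell, with a median of 0.24. Il13 had levels of 4.52, 5.13 and 5.50 in controls and 5.28, 5.91 and 7.51 in challenged mice and rose by 0.92 ± 0.20 (adjusted p = 0.00127). Il4 levels were 4.13, 4.68 and 5.36 and 4.41, 5.11 and 7.04, 7 of the 12 challenged mice lying within the control range, with a rise of 0.68 ± 0.20 (adjusted p = 0.0137) that did not pass with array SD as a covariate (adjusted p = 0.0629). Il5, the growth factor of eosinophils (0.41 ± 0.19, adjusted p = 0.112), and Il9 (−0.08 ± 0.18) did not pass. The receptor chains Il5ra (0.56 ± 0.15) and Il9r (0.42 ± 0.09) rose. Il17rb, the receptor of the alarmin interleukin 25, rose by 0.35 ± 0.10, and not with array SD as a covariate (adjusted p = 0.0618).

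Of 14 mucous and goblet cell genes 6 rose and 1 fell, with a median of 0.52. Beside Clca1 and Slc26a4, Agr2, a disulfide isomerase needed for mucin folding, had levels of 3.96, 4.99 and 7.23 and 5.26, 6.90 and 8.14 and rose by 1.73 ± 0.41 (adjusted p = 0.00271). The transcription factor Foxa3 rose by 0.55 ± 0.12. Spdef, which directs goblet cell differentiation, rose by 0.40 ± 0.14 (adjusted p = 0.0415), and Foxa2, which restrains it, fell by 0.41 ± 0.14 (adjusted p = 0.0366). Both calls ended with array SD as a covariate (adjusted p = 0.238 and 0.119) and without any 1 of 15 mice for Spdef or of 10 for Foxa2. Clca1 ran from 6.83 to 9.82 in controls of number series 5 and from 5.96 to 12.67 in those of series 6. Of the latter, mouse643, mouse644, mouse645 and mouse655 lay above all series 5 controls, and mouse656 (7.73) and mouse657 (5.96) did not. The changes of Clca1 within series 5 and 6 were 4.17 and 1.65, those of Chil4 5.74 and 2.52. The difference between the series did not pass for either (limma, adjusted p = 0.853 and 0.829). It passed for none of the 16715 clusters (0%), although 978 had an unadjusted p under 0.05.

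**Figure D2:**
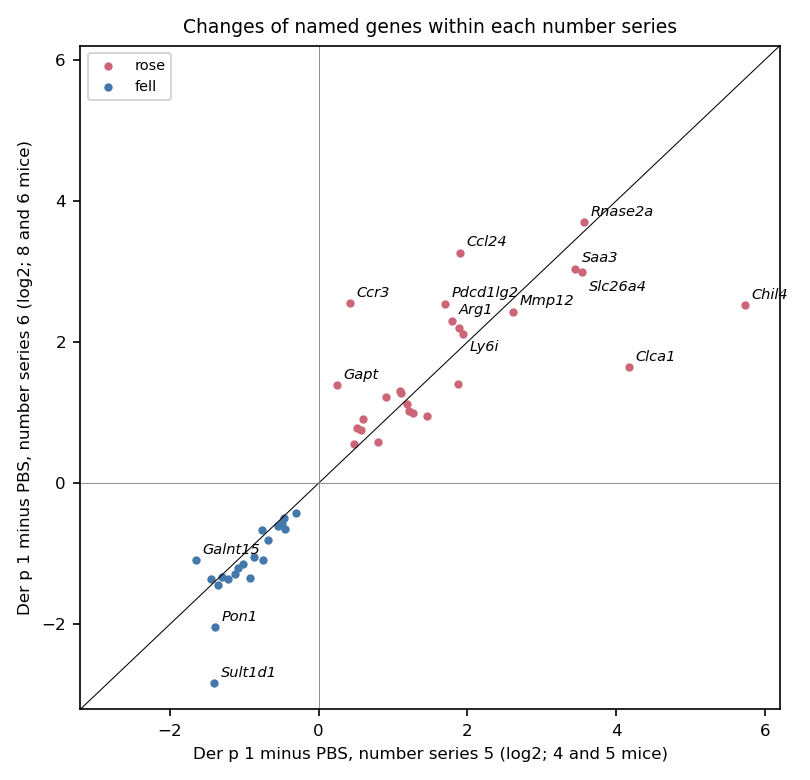
Challenged minus control (log2) in number series 5, 5 control and 4 challenged mice, against number series 6, 6 control and 8 challenged mice, for 46 named genes. Red genes rose, blue genes fell and the line marks equal change. Chil4 and Clca1 changed more in series 5, and Ccr3 and Gapt in series 6, and no difference between the series passed the test.

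Of 9 measured eosinophil genes 6 rose and none fell, with a median of 0.56. In bulk lung RNA, more cells of a type and more RNA per cell cannot be told apart, here and for every cell type below. Prg2, major basic protein, was between 4.60 and 5.63 in the 11 controls. In challenged mice of number series 6 it lay at 7.44 in mouse646, 6.76 in mouse647, 7.48 in mouse648, 6.05 in mouse649, 5.78 in mouse658, 8.53 in mouse659, 5.85 in mouse660 and 7.68 in mouse661. In series 5, mouse532 lay at 6.93, and mouse534 (5.06), mouse538 (5.37) and mouse540 (5.55) lay within the control range. Mouse532 had the lowest array SD (1.44). It was also the highest of the C57BL/6J mice for dim genes of other kinds, such as Sult1b1 (4.3) and Mcpt1 (5.22). The part of its array SD in its Prg2 level was not tested. The Prg2 difference was 1.40 ± 0.29 (adjusted p = 0.000806), or 0.67 within series 5 and 1.73 within series 6. Ccr3, the eotaxin receptor of eosinophils, had levels of 2.81, 4.59 and 6.52 and 3.47, 7.16 and 9.90. All 8 challenged mice of series 6 lay above all 11 controls, and the 4 of series 5 lay among the controls of their own number series or slightly above.

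Ccr3 rose by 2.11 ± 0.76 (adjusted p = 0.0451), by 0.43 in series 5 and 2.55 in series 6. The call ended without any 1 of 12 mice, at an adjusted p of up to 0.0971 without mouse659, and with both covariates (0.0654). The difference between the series had an unadjusted p of 0.00742 and an adjusted p of 0.812. Gapt, an adaptor protein of blood cells, changed by 0.24 within series 5 and by 1.39 within series 6. Its call ended without mouse659 (adjusted p = 0.0532). Prg3 (0.47 ± 0.12) and Il5ra rose, and both lost the call with both covariates together (adjusted p = 0.104 and 0.0622). Epx, eosinophil peroxidase (0.20 ± 0.12, adjusted p = 0.238), and Siglecf, found on eosinophils and alveolar macrophages (0.31 ± 0.22, adjusted p = 0.305), did not pass. Of 11 mast cell and basophil genes the tryptase Tpsb2 rose (0.30 ± 0.11, and 0.10 with array SD as a covariate, adjusted p = 0.33) and the factor Gata2 fell (−0.38 ± 0.12), neither firmly. The proteases Cpa3 (0.29 ± 0.20), Mcpt1 (0.42 ± 0.19) and Mcpt2 (0.28 ± 0.17) did not pass.

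**Figure D3:**
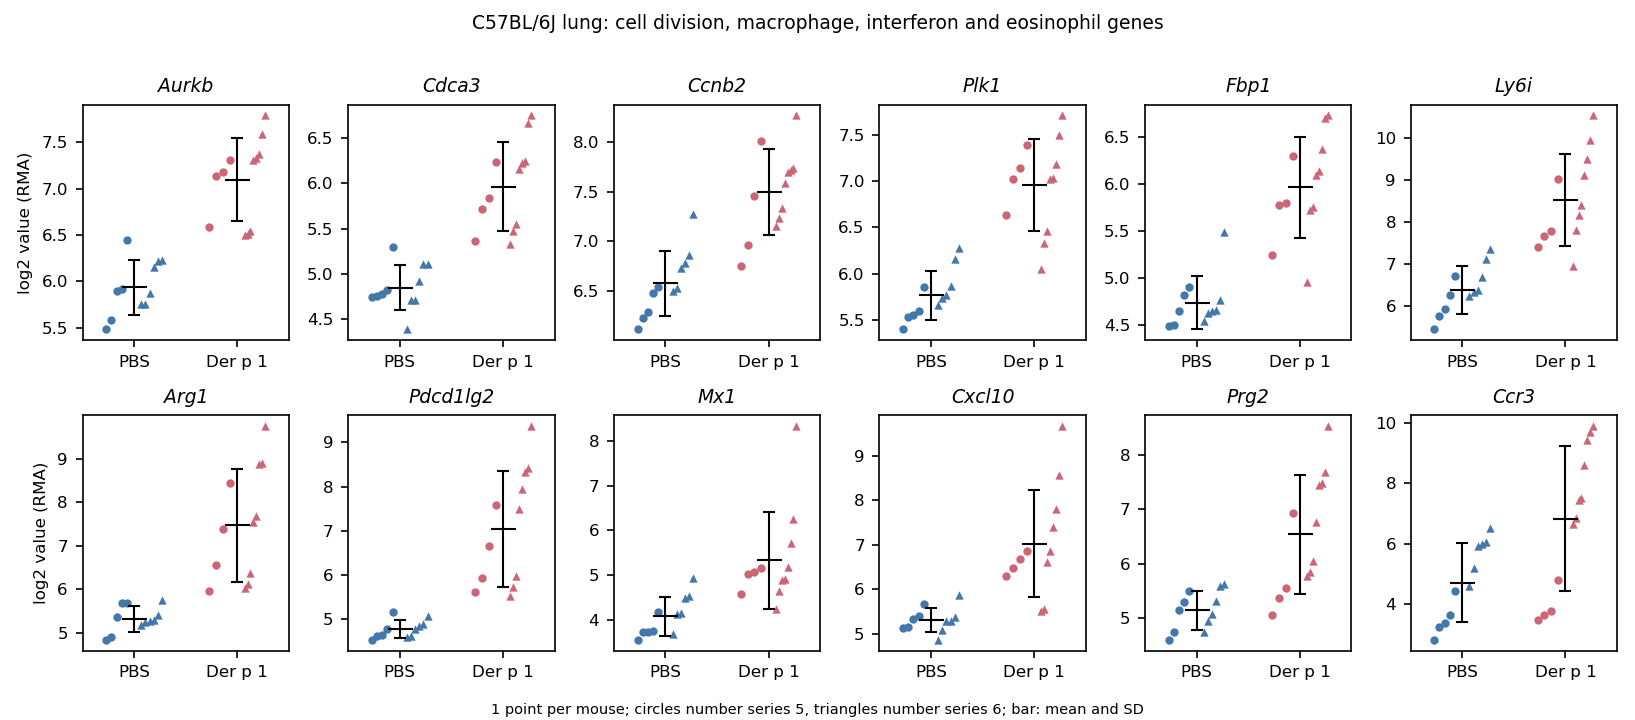
Log2 level in each C57BL/6J mouse for cell division genes (Aurkb, Cdca3, Ccnb2, Plk1), macrophage and leukocyte genes (Fbp1, Ly6i, Arg1, Pdcd1lg2), interferon-related genes (Mx1, Cxcl10) and eosinophil genes (Prg2, Ccr3). Blue points are the 11 PBS mice and red points the 12 Der p 1 mice, circles number series 5 and triangles number series 6, and bars the mean ± SD. For Ccr3 the red circles lie among the blue points and the red triangles above them.

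Chemokines set where leukocytes go. Of 28 measured 15 rose, 9 firmly, and none fell, with a median of 0.64 (0.24 in series 5 and 0.77 in series 6). Ccl8, a monocyte and eosinophil attractant, had levels of 3.69, 4.22 and 5.72 and 5.62, 7.58 and 8.64 and rose by 2.68 ± 0.60 (adjusted p = 0.00171). Cxcl10, the interferon-induced ligand of Cxcr3, had levels of 4.86, 5.30 and 5.87 and 5.51, 6.78 and 9.67. The challenged mice ranged from the control level to far above it, and it rose by 1.71 ± 0.29 (adjusted p = 0.000107). Ccl1, a ligand of Ccr8, rose by 0.70 ± 0.13. Ccl2, the main monocyte attractant, rose by 0.82 ± 0.29 (adjusted p = 0.045), a call that ended without any 1 of 14 mice (adjusted p up to 0.0994 without mouse659). Ccl3 (0.58 ± 0.29, adjusted p = 0.145) did not pass. Of 14 chemokine receptors 2 rose, Ccr3 and Ccr6 (0.33 ± 0.12), and none fell. Ccr6 lost its call with array SD as a covariate (adjusted p = 0.0719), after a second quantile normalization (0.16, adjusted p = 0.465) and without any 1 of 15 mice. Ccr1 (0.76 ± 0.37, adjusted p = 0.138) and Ccr2 (0.25 ± 0.37) did not pass.

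Of 12 interferon response genes 7 rose, all firmly, and none fell, with a median of 0.73. Mx1, an antiviral GTPase, had levels of 3.55, 4.13 and 4.93 in controls and 4.24, 5.05 and 8.33 in challenged mice and rose by 1.25 ± 0.27 (adjusted p = 0.00113). Irf7 (0.95 ± 0.22) and the oligoadenylate synthetase family genes Oas2 (0.76 ± 0.16) and Oasl2 (0.81 ± 0.19) rose with it, and Ifit1 (0.32 ± 0.32, adjusted p = 0.462) and Ifit2 (0.34 ± 0.16) did not pass. The mean of the 12 genes was highest in mouse646, 2.37 above the control mean, followed by mouse649 at 1.5 and mouse658 at 0.86. The other 9 challenged mice lay between −0.07 and 0.63, and the controls between −0.35 and 0.33. The calls held without mouse646.

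Of 12 macrophage and monocyte genes 5 rose and none fell (median 0.51), and 8 rose with array SD as a covariate. The 3 chains of complement C1q, made by tissue macrophages, rose together, C1qa by 0.89 ± 0.24 (adjusted p = 0.00816), C1qb by 0.70 ± 0.21 and C1qc by 0.83 ± 0.24. The receptor Trem2 (0.51 ± 0.19, adjusted p = 0.0842 with array SD as a covariate) rose and the integrin Itgam rose by 0.91 ± 0.24, and not with both covariates (adjusted p = 0.0563). Adgre1, an adhesion receptor of mouse macrophages (0.40 ± 0.29, adjusted p = 0.327), Cd68 (0.51 ± 0.27, adjusted p = 0.161) and Csf1r (0.34 ± 0.16) did not pass. Without mouse532 Cd68 (0.71, adjusted p = 0.0354) and Csf1r (0.44, adjusted p = 0.0282) did. Of 13 alveolar macrophage genes none rose and 2 fell, 1 of them, the lipid droplet gene Cidec, firmly (−0.74 ± 0.15), and the tetraspanin Cd9 not (−0.35 ± 0.11, adjusted p = 0.104 with array SD as a covariate). Marco (0.06 ± 0.12) and Car4 (−0.22 ± 0.10) did not pass. Whether the 2 lists differed was not tested.

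Of 13 T cell genes 7 rose, 6 firmly, and none fell (median 0.44). Cd3g (0.91 ± 0.25, adjusted p = 0.00969) and Cd3e (0.62 ± 0.13, adjusted p = 0.000615), chains of the T cell receptor complex, rose, and so did Cd5 (0.45 ± 0.10), Cd4 (0.44 ± 0.11), Il2ra and the inhibitory receptor Pdcd1 (0.53 ± 0.12). Cd4 (adjusted p = 0.0645) and Pdcd1 (adjusted p = 0.0728) lost the call with both covariates. Cd3d (0.52 ± 0.22, adjusted p = 0.0828) did not pass. Of 12 dendritic cell genes 5 rose and none fell: the factors Irf4 (0.81 ± 0.19) and Irf8 (0.44 ± 0.13), the actin bundler of mature dendritic cells Fscn1 (0.56 ± 0.14), the receptor Xcr1 of cross-presenting cells (0.42 ± 0.12) and Flt3 (0.57 ± 0.19). Xcr1 lost the call with both covariates (adjusted p = 0.108) and after a second quantile normalization (adjusted p = 0.0673). Flt3 lost it with both covariates, after a second quantile normalization and without any 1 of 7 mice.

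Of 12 neutrophil genes Retnlg rose (1.66 ± 0.52), not firmly, and none fell, and S100a8 (−0.39 ± 0.38, adjusted p = 0.463) and S100a9 (−0.42 ± 0.43) did not pass. Of 9 NK and cytotoxic genes 1 rose, Xcl1 (0.36 ± 0.11), and not with array SD as a covariate (adjusted p = 0.0765). The granzymes Gzma (−0.01 ± 0.33) and Gzmb (−0.13 ± 0.30) did not pass. Of 13 B and plasma cell genes Derl3, of endoplasmic reticulum degradation, rose (0.49 ± 0.12) and Prdm1 fell (−0.37 ± 0.11, adjusted p = 0.0974 with array SD as a covariate), while Cd79a (0.44 ± 0.36) and Ms4a1 (0.05 ± 0.43) did not pass. With array SD as a covariate 5 of the 13 rose and none fell. Of 5 genes of MHC class II presentation the invariant chain Cd74 rose (0.57 ± 0.17, adjusted p = 0.0135). H2-Aa (0.29 ± 0.16, adjusted p = 0.18) and H2-Ab1 (0.33 ± 0.19, adjusted p = 0.214) did not pass in the main comparison, and with array SD as a covariate 4 of the 5 rose. Without mouse532 H2-Aa passed (0.40, adjusted p = 0.0421).

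Of 10 complement genes 6 rose and 1 fell (median 0.64), and the 1 that fell was the C1 inhibitor Serping1 (−0.34 ± 0.12). Its difference was −0.15 with array SD as a covariate (adjusted p = 0.286), and the call ended without any 1 of 14 mice. The rises included C1qa, C1qb and C1qc, which were also counted above among the macrophage and monocyte genes. Factor B of the alternative pathway, Cfb, rose too (0.82 ± 0.22, adjusted p = 0.00607). Factor I, Cfi (0.57 ± 0.15), lost its call with both covariates (adjusted p = 0.102). Of 10 acute-phase genes 3 rose and 1 fell. Beside Saa3, the iron-sequestering lipocalin Lcn2 rose by 0.86 ± 0.23 (adjusted p = 0.00869) and the pentraxin Ptx3 by 0.47 ± 0.14, the latter not after a second quantile normalization (adjusted p = 0.108). Haptoglobin, Hp, fell by 0.30 ± 0.11 (adjusted p = 0.0422), a call that ended with array SD as a covariate (adjusted p = 0.0774) and without any 1 of 11 mice.

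Cytochromes P450 and flavin oxidases oxidise foreign compounds. Of 16 cytochrome P450 and flavin oxidase genes 13 fell, 10 firmly, and none rose, with a median of −0.64 (−0.62 in series 5 and −0.78 in series 6). Cyp2e1, which oxidises ethanol and small solvents, fell by 1.26 ± 0.24 (adjusted p = 0.000318). Cyp4b1, an abundant P450 of lung, fell by 1.01 ± 0.19 (adjusted p = 0.000405), Cyp2b10 by 0.86 ± 0.18 and the epoxide hydrolase Ephx1 by 1.13 ± 0.21 (adjusted p = 0.000304). Aldehyde oxidase Aox1 had levels of 7.18, 7.63 and 7.78 in controls and 6.39, 7.04 and 7.41 in challenged mice. Every challenged mouse lay below the control mean, and it fell by 0.59 ± 0.10 (adjusted p = 0.000207). Cyp1a1, the enzyme induced by dioxin-like compounds (−0.68 ± 0.26, adjusted p = 0.0607), and Cyp1b1 (0.30 ± 0.13) did not pass.

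Of 18 conjugation and paraoxonase genes 4 fell, 3 firmly, and none rose. They were Sult1d1, Pon1, Gstm5 (−0.45 ± 0.16, and −0.21 with array SD as a covariate, adjusted p = 0.307) and the glutathione transferase Gsta3 (−0.75 ± 0.22), which lost its call after a second quantile normalization (adjusted p = 0.0681), while Sult1a1 (−0.47 ± 0.21, adjusted p = 0.0984) did not pass. Aldh3a1, an aldehyde dehydrogenase, had levels of 7.02, 7.68 and 8.51 and 5.44, 6.65 and 7.33 and fell by 1.26 ± 0.20 (adjusted p = 6.02e-05). Of 13 antioxidant genes the cystine carrier Slc7a11 rose (0.77 ± 0.28), not firmly, and 2 fell. The quinone reductase Nqo1 fell firmly (−0.67 ± 0.16, adjusted p = 0.00236), and catalase, Cat (−0.51 ± 0.15), fell and lost the call with array SD as a covariate (adjusted p = 0.0804). Hmox1 (0.20 ± 0.25, adjusted p = 0.582) and Gclc (0.26 ± 0.12) did not pass.

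**Figure D4:**
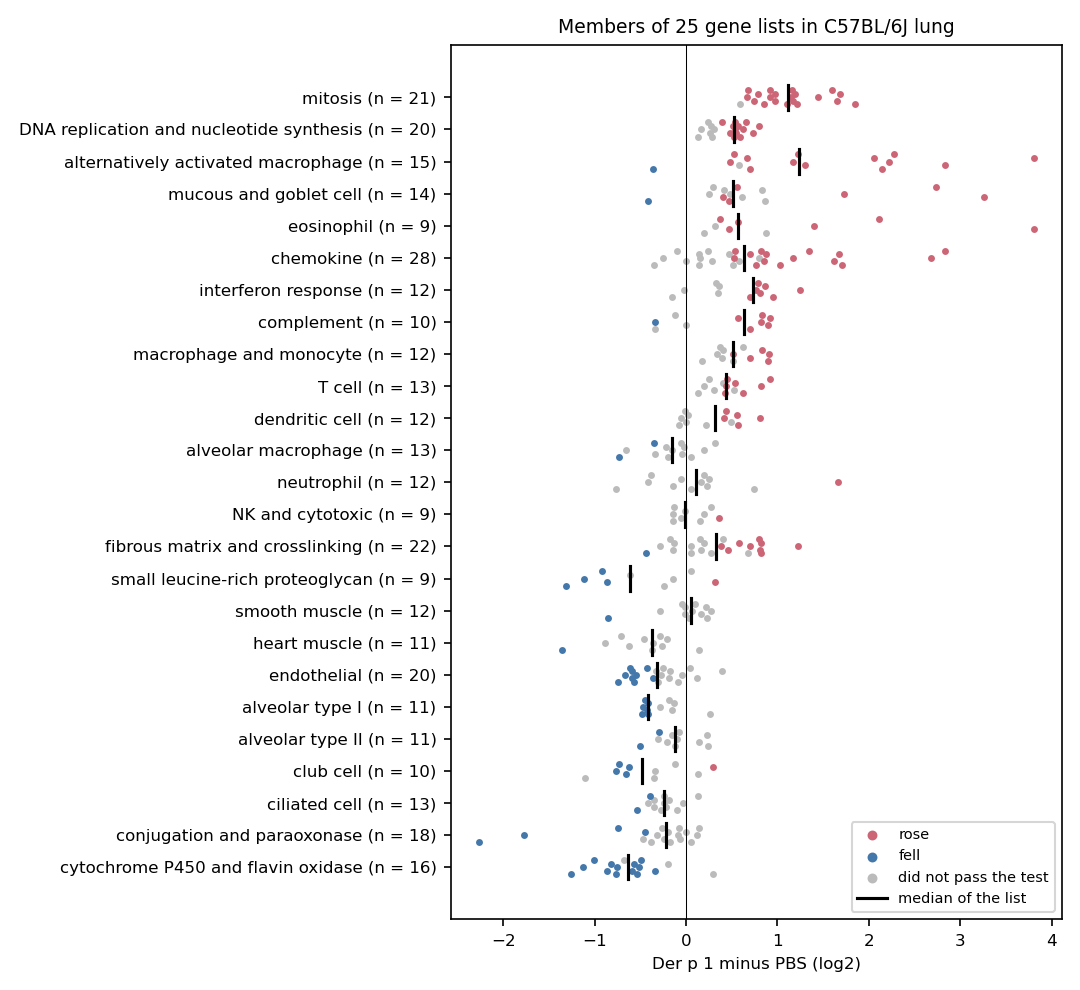
Challenged minus control (log2) of each measured member of 25 gene lists, 1 point per gene. Red genes rose, blue genes fell and grey genes did not pass the test. Black bars mark the median of each list, from 1.23 for alternatively activated macrophage genes and 1.11 for mitosis to −0.64 for cytochrome P450 and flavin oxidase genes, against 0.06 over all genes.

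The 15 firm falls with the smallest p-values were led by Azgp1, zinc-alpha-2-glycoprotein, a secreted lipid-mobilising protein, with levels of 5.83, 6.07 and 6.72 in controls and 4.43, 5.17 and 6.09 in challenged mice. It fell by 1.12 ± 0.17 (adjusted p = 3.9e-05) in C57BL/6J, against a change of 0.01 in BALB/cJ. The difference between the strains in Azgp1 did not pass (limma, adjusted p = 0.0537). The amino acid transporter Slc38a4 had levels of 7.13, 7.86 and 8.16 and 5.52, 6.51 and 7.72 and fell by 1.16 ± 0.18 (adjusted p = 4.32e-05). The lipid transporter genes Abca6 (−0.96 ± 0.15), Abca8a (−1.28 ± 0.21) and Abca8b (−0.93 ± 0.17), which lie on chromosome 11 and resemble each other, fell in parallel. Their probes may in part read each other's transcripts. The prostaglandin F receptor Ptgfr fell by 1.17 ± 0.19 (adjusted p = 0.000104) from a control median of 7.69. The adhesion receptor Adgrl3 (−0.77 ± 0.13), the branched-chain keto acid dehydrogenase subunit Dbt (−0.53 ± 0.09), the kinase gene Map3k20 (−0.48 ± 0.08), the nuclear envelope gene Tmem43 (−0.71 ± 0.13) and the atypical protein kinase C Prkci (−0.57 ± 0.10) completed the 15 with Aldh3a1, Galnt15, Sult1d1 and Aox1.

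Of 10 club cell genes 4 fell and 1 rose. The secretoglobin Scgb3a2 fell by 0.73 ± 0.20 (adjusted p = 0.00805), Cyp2f2 by 0.76 ± 0.18 (adjusted p = 0.0502 with both covariates), the retinal dehydrogenase Aldh1a1 by 0.66 ± 0.14 and Gabrp by 0.62 ± 0.20. Gabrp lost its call with array SD as a covariate (−0.36, adjusted p = 0.16) and without mouse659 (adjusted p = 0.0616) or mouse661 (0.0567). Scgb1a1 itself rose by 0.29 ± 0.09 (adjusted p = 0.0201), a difference of 0.06 after a second quantile normalization (adjusted p = 0.571). Of 11 alveolar type I genes 6 fell and none rose (median −0.41), and 1, the chloride channel family gene Clic5 (−0.48 ± 0.10, adjusted p = 0.00104), did so with array SD as a covariate. Ager (−0.16 ± 0.09, adjusted p = 0.189) did not pass, while Hopx (−0.47 ± 0.14), Cav1 (−0.45 ± 0.13) and Rtkn2 (−0.42 ± 0.13) fell and lost the call with that covariate. Array SD was lower on average in challenged mice, a difference that did not pass over all C57BL/6J mice (two-sided permutation p = 0.0695). Its part in these falls was not tested beyond that covariate. Of 11 alveolar type II genes 2 fell, Lpcat1 (−0.30 ± 0.10, adjusted p = 0.164 with array SD as a covariate) and the aspartic protease Napsa (−0.50 ± 0.15, adjusted p = 0.119 with array SD as a covariate), and the surfactant genes Sftpb (−0.15 ± 0.14) and Sftpc (0.24 ± 0.12, adjusted p = 0.127) did not pass. Of 13 ciliated cell genes 2 fell, Tekt1 (−0.40 ± 0.13) and Tppp3 (−0.53 ± 0.19), neither firmly, and Foxj1, the master factor of motile cilia, did not pass (−0.10 ± 0.19, adjusted p = 0.731).

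Of 20 endothelial genes 9 fell, 5 firmly, and none rose (median −0.32). The vascular growth factor receptor Kdr fell by 0.61 ± 0.15 (adjusted p = 0.00266), the angiopoietin receptor Tek by 0.60 ± 0.13, the arterial ephrin Efnb2 by 0.75 ± 0.15 (adjusted p = 0.000554), the phosphatase Ptprb by 0.59 ± 0.12 and the junction protein Esam by 0.43 ± 0.09. Cdh5, VE-cadherin, fell by 0.36 ± 0.11 (adjusted p = 0.0232). That call ended with array SD as a covariate (adjusted p = 0.0872), without mouse659 (0.0613) and without mouse661 (0.0529). Pecam1 (−0.17 ± 0.09, adjusted p = 0.154) did not pass. In the same lungs T cell, dendritic cell and macrophage genes rose in part, as counted above, and the part of a changed mix of cells in these falls was not tested.

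Of 22 genes of fibrous matrix and crosslinking 9 rose and 1 fell, Fbln1 (−0.43 ± 0.14) (median 0.32), and with array SD as a covariate none fell and 1 rose. That 1 was the fibrillar collagen gene Col5a2 (0.81 ± 0.17, adjusted p = 0.00108, in the main comparison). Collagen I, Col1a1, had levels of 7.67, 9.09 and 9.92 in controls and 8.52, 10.34 and 11.53 in challenged mice, a rise of 1.22 ± 0.33 (adjusted p = 0.00797), and adjusted p = 0.0528 with array SD as a covariate. Its controls were higher in series 5 than in series 6, and the changes within them were 1.19 and 1.47. Col3a1 (0.80 ± 0.25) and elastin, Eln (0.82 ± 0.25), lost the call with that covariate, and Col1a2 (0.81 ± 0.28) also without any 1 of 11 mice. With both covariates together Col1a1 (1.23, adjusted p = 0.00823), Col1a2 (0.84, adjusted p = 0.0225), Col3a1 (0.85, adjusted p = 0.0284) and Eln (0.84, adjusted p = 0.0278) passed. Of 9 small leucine-rich proteoglycans 4 fell and 1 rose (median −0.61). Omd, osteomodulin (−1.12 ± 0.23, adjusted p = 0.000824), fell firmly beside Dcn, Ogn (−0.87 ± 0.26) and Aspn (−0.92 ± 0.28) fell and lost the call with array SD as a covariate (adjusted p = 0.0835 and 0.12), and Podn rose (0.32 ± 0.09). Lumican, Lum (−0.61 ± 0.27, adjusted p = 0.0982), did not pass.

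Of 21 metalloproteinases and inhibitors 8 rose and 2 fell. Mmp12, macrophage elastase, had levels of 4.76, 5.50 and 7.05 in controls and 6.42, 8.54 and 10.43 in challenged mice and rose by 2.62 ± 0.53 (adjusted p = 0.000598). The inhibitor Timp1 had levels of 6.71, 7.28 and 8.09 and 7.86, 9.06 and 11.05 and rose by 1.93 ± 0.40 (adjusted p = 0.000774). The sheddase Adam8 of leukocytes (0.87 ± 0.19) and the aggrecanase Adamts4 (0.55 ± 0.14) rose, Timp3 (−0.52 ± 0.14) and Timp4 (−0.39 ± 0.14) fell. Timp3 lost its call after a second quantile normalization (adjusted p = 0.0657), and Timp4 with both covariates (adjusted p = 0.125) and without any 1 of 11 mice. Mmp2 (−0.10 ± 0.14) and Mmp3 (−0.37 ± 0.19, adjusted p = 0.156) did not pass. Of 16 cathepsin and lysosome genes the 2 that rose were the collagenolytic Ctsk (1.16 ± 0.27, adjusted p = 0.00261) and Ctsz (0.55 ± 0.15). None fell, and Ctsa (−0.13 ± 0.13), Ctsb (0.05 ± 0.11) and Ctsc (0.21 ± 0.19) did not pass. With array SD as a covariate 5 rose.

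Of 12 smooth muscle genes Cnn1, calponin, was the 1 that fell, and none rose (−0.85 ± 0.20, adjusted p = 0.00277, and 0.0704 with both covariates). Acta2 (0.07 ± 0.17), Actg2 (−0.01 ± 0.23) and Tagln (−0.05 ± 0.12) did not pass. Of 15 receptors of airway contraction and their regulators Tbxa2r (0.28 ± 0.09) and Tacr1 (0.66 ± 0.23) rose, neither firmly, and 3 fell firmly: Chrm2, the endothelin receptor Ednrb (−0.78 ± 0.21, adjusted p = 0.00684) and the angiotensin receptor Agtr1a (−0.89 ± 0.19, adjusted p = 0.00123). Chrm3, the muscarinic receptor that contracts airway muscle, did not pass (−0.22 ± 0.12, adjusted p = 0.177). Of 23 eicosanoid genes 3 rose and 4 fell, Ptgfr among the latter. Alox15 had levels of 5.12, 5.65 and 7.65 and 6.25, 7.77 and 10.44, thromboxane synthase, Tbxas1, rose by 0.86 ± 0.23, the prostaglandin E receptor Ptger4 by 0.45 ± 0.13 (adjusted p = 0.104 with both covariates), and the prostaglandin-degrading enzyme Hpgd fell by 0.57 ± 0.15 (adjusted p = 0.0939 with both covariates). Cyclooxygenase 2, Ptgs2, fell by 0.68 ± 0.24, and its difference was −0.34 with array SD as a covariate (adjusted p = 0.286). The Ptgs2 call also ended without any 1 of 12 mice. Alox12 fell by 0.52 ± 0.16, and not with array SD as a covariate (adjusted p = 0.081). Alox5 (0.23 ± 0.16) and Alox5ap (0.09 ± 0.23), which make leukotrienes, did not pass.

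Arg1 was the firm rise among 13 genes of arginine and nitric oxide metabolism, of which Slc7a2 (0.53 ± 0.17) and Srm (0.31 ± 0.11) rose and Asl (−0.49 ± 0.15) fell without being firm, and Arg2 did not pass (0.03 ± 0.19). Of 17 endoplasmic reticulum chaperone and unfolded protein genes 4 rose and 1 fell, all firmly, and 7 rose with array SD as a covariate. Sdf2l1 (0.75 ± 0.14), Hsp90b1 (0.32 ± 0.09), Manf (0.66 ± 0.12) and Creld2 (0.54 ± 0.12) rose, Herpud1 fell (−0.43 ± 0.11), and Hspa5 (0.18 ± 0.12, adjusted p = 0.292) and Ddit3 (−0.08 ± 0.16) did not pass. Of 15 cholesterol and fatty acid synthesis genes 2 fell, Scd2 (−0.47 ± 0.11) and Lss (−0.23 ± 0.07), and none rose, and neither call held with both covariates (adjusted p = 0.0735 and 0.0915). Of 12 circadian genes Bhlhe40 (0.41 ± 0.13) and Npas2 (0.24 ± 0.08) rose and Bhlhe41 (−0.62 ± 0.15), Clock (−0.42 ± 0.14), Nr1d2 (−0.42 ± 0.13) and Dbp (−0.71 ± 0.23) fell, of which Bhlhe41 was firm. Per1 (0.13 ± 0.24) and Cry1 (−0.17 ± 0.11) did not pass. Of 14 immediate early genes Egr2 rose (0.48 ± 0.17) and Jun (−0.40 ± 0.11), Btg2 (−0.51 ± 0.17) and Dusp1, a phosphatase of MAP kinases (−0.74 ± 0.18, adjusted p = 0.00298), fell, of which Dusp1 was firm. Fos did not pass (−0.61 ± 0.23, adjusted p = 0.0505), and did without mouse644 (adjusted p = 0.0438). Of 5 heat shock genes 1 rose, Hsp90aa1 (1.03 ± 0.29), and with array SD as a covariate it did not (adjusted p = 0.085). Its levels were low, from 2.93 to 5.36 in controls and from 3.63 to 6.42 in challenged mice, and lay below the array median in every mouse.

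Muscle, fat, mesothelium and blood can be caught in the lobe with lung tissue. Of 6 skeletal muscle genes Pvalb rose (0.40 ± 0.14, and 0.13 with array SD as a covariate, adjusted p = 0.286), and none fell. Of 10 adipocyte genes 2 fell, Cidec and adiponectin (Adipoq, −0.92 ± 0.29), and the latter lost the call without mouse643 (adjusted p = 0.0606) or mouse645 (0.0557). Of 8 mesothelial genes 2 fell, the keratin Krt19 (−0.85 ± 0.19) and Upk1b (−0.86 ± 0.26, adjusted p = 0.119 with array SD as a covariate), and Msln (0.16 ± 0.24) did not pass. Of 5 erythroid genes Alas2 fell (−0.82 ± 0.29) and Epb42 rose (0.30 ± 0.09), and neither call held with array SD as a covariate (adjusted p = 0.233 and 0.116).

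The challenged mice differed among themselves in how far these groups moved. The mean of the mitosis genes was 1.97 above the control mean in mouse659, the highest, and 0.35 in mouse647, the lowest. For alternatively activated macrophage genes the highest and lowest were 2.55 in mouse659 and 0.15 in mouse532. For eosinophil genes they were 2.58 in mouse659 and 0.03 in mouse538. Mouse659 also had the lowest mean of cytochrome P450 and flavin oxidase genes, 1.45 below the control mean, and mouse660, at 0.02, the highest. Among the genes that passed, the SD among the 12 challenged mice was greatest for Chil4, Saa3, Ccl24, Mmp12, Ccr3 and Gapt. Saa3 lay at 11.37 in mouse661 and at 6.27 in mouse660, Ccl24 at 10.96 in mouse659 and at 5.98 in mouse532, and Mmp12 at 10.43 in mouse659 and at 6.42 in mouse532 and mouse538. Mouse532 is the animal with the lowest array SD, and without it the differences were 3.33, 3.01 and 2.79.

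**Figure D5:**
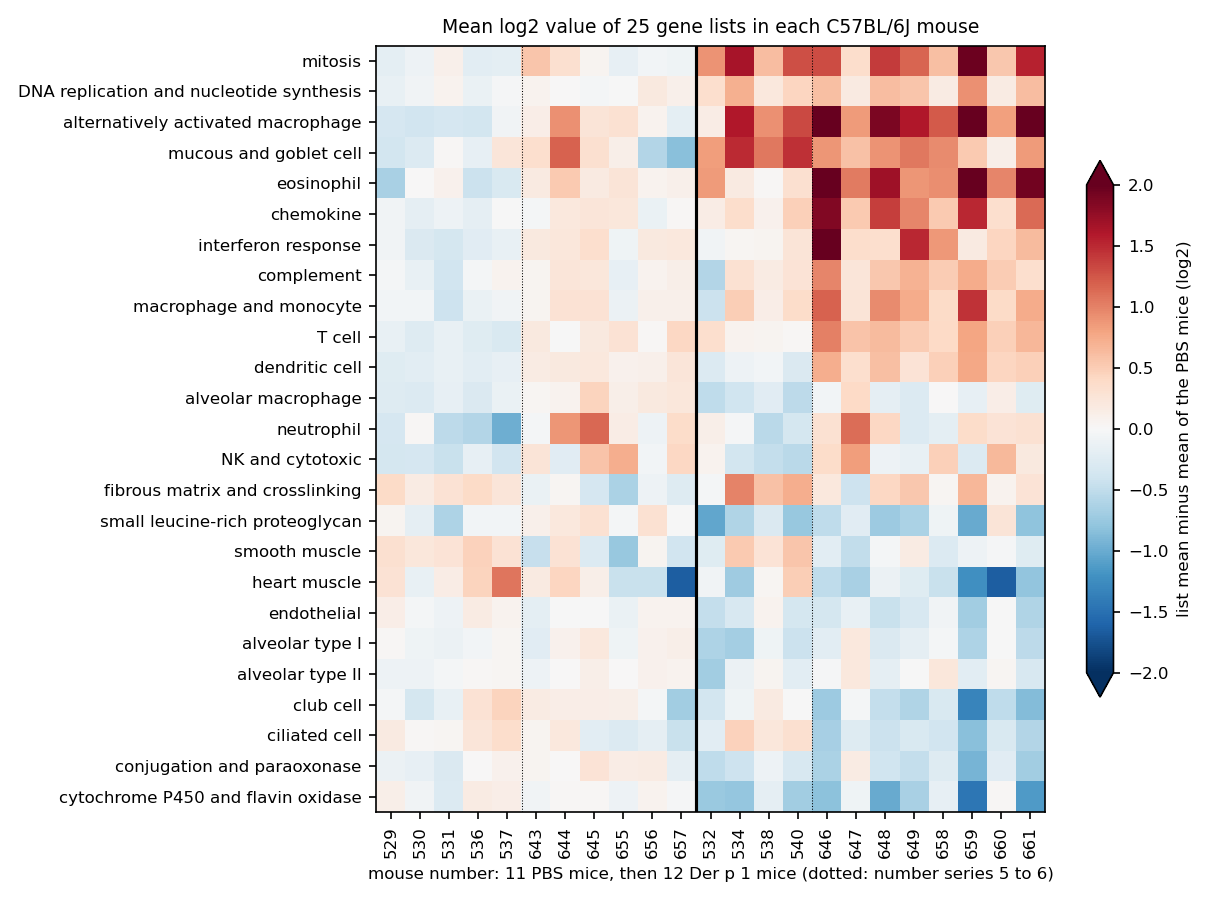
Mean log2 value of each of 25 gene lists in each C57BL/6J mouse, minus the mean of the 11 PBS mice. Red is higher and blue lower, values beyond 2 take the end colour, the black line separates PBS from Der p 1 mice and dotted lines separate number series 5 from 6. Mouse646, mouse648, mouse659 and mouse661 are the darkest red for macrophage, eosinophil and chemokine genes. Mouse644 is the control that stands out for alternatively activated macrophage and goblet cell genes.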

How the data were processed

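Each array was an Affymetrix Mouse Exon 1.0 ST array hybridised with ribosome-depleted lung RNA. Values were deposited on a log2 scale, 1 per transcript cluster, after the authors had applied RMA in Partek, per the labels. The version of that software and the annotation release are not given in the sources used here. Depth does not apply to arrays, and the number of mice limits the precision.

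Arrays were assigned to groups by their titles, and repeat arrays of a mouse were averaged. limma 3.58.1 in R 4.3.3 fitted 4 group means (strain by challenge) to the 48 mice, with empirical Bayes variances and Benjamini-Hochberg adjustment over 16715 clusters, and the strain difference was the interaction contrast. The fit was tested on simulated data. Differences in array SD and in array median were tested by permuting mice (100000 draws, or exactly within a number series). Alternatives covered the covariates, scaling, dim clusters, repeat arrays, array weights, the samples fitted and single mice. Chosen after seeing the data were those without mouse532 for the series difference and array SD, and for the strain difference those without single mice, with both covariates, with the run of mouse numbers, within 1 number series, with the first array of each mouse, without dim clusters and with a trended prior.

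Genes were named by rule: the 15 firm rises and 15 firm falls with the smallest p, up to 6 with the largest change each way, the 6 with the greatest SD among challenged mice, up to 5 each way with the widest gap between groups that did not overlap, and, in each of 47 lists, up to 4 members that kept their call without any single mouse and the first 3 measured. Members outside it were named, after their values were seen, where a list had few calls. The members and lists were chosen with earlier results of these data known, so a list is described by its counts and its median and gets no test.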

Additional observations from a re-analysis of the deposited data

Results flagged for a closer look

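Fbp1 and Fcrl5 are listed because their response to Der p 1 differed between the strains by a test of the difference itself. The change of Fbp1 in C57BL/6J exceeded that in BALB/cJ by 1.19 on the log2 scale (limma interaction, adjusted p = 0.00351). That of Fcrl5 exceeded it by 0.73 (adjusted p = 0.0177). The Fcrl5 difference did not pass with both covariates (adjusted p = 0.152), after a second quantile normalization (adjusted p = 0.155) or with the first array of each mouse (adjusted p = 0.0506).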

How the results depend on the processing

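Of the counts of clusters that passed (3146, with 1646 higher and 1500 lower), those that moved by more than 1.5 times did so as follows. The number series as a covariate gave 5480 (2868 higher, 2612 lower) and the run of mouse numbers as a covariate 6132 (3286 and 2846). Both covariates together gave 1423 (794 and 629), number series 5 alone 305 (209 and 96) and array weights 7035 (4040 and 2995). Array SD as a covariate left 997 falls, centring each array 1068 rises, and leaving out the dimmest 50% of clusters 729 rises. Without a single mouse the counts ran from 2224 to 4969, with 1145 to 2746 higher and 1079 to 2223 lower.

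The 2 strain differences became 6 with the number series, 8 with the run of mouse numbers, 1759 with array weights, 1 with both covariates, with the first array of each mouse or without the dimmest 25%, and 0 without the dimmest 50% or within number series 5 alone. Without a single mouse they numbered 2 to 6. The difference in array SD within number series 6, −0.11, was the 1 that passed. The mitosis promoter share of 77.8% was 44.4% before the start alone. The cause of these shifts was not tested.

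Of the 256 genes named, 195 were called. Over 9621 values under the alternatives, 8780 kept direction and call, 744 lost the call, 96 gained it, and 1 reversed, Hp at 0.01 within number series 5 alone. With both covariates 73 of the 195 lost the call. Of 282 list counts, 75 moved by more than 1.5 times. No paired analysis was possible because nothing in the labels ties a challenged animal to a control.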
